A study of Mus musculus with 58 samples.

Results

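Diabetic and control mouse retinas were compared at ZT21, late in the dark phase, 21 h after lights on and shortly before the next morning. The comparison took the libraries whose time label is ZT21, which were 5 from diabetic and 4 from control retinas and made up 9 of the 58 libraries of the series. The diabetic animals were heterozygous males of the strain C57BL/6-Ins2Akita/J, which carry a mutant Insulin 2 gene and were hyperglycemic. The controls were male littermates without the phenotype, labelled C57/BL/6. All were killed at 4 months of age on a 12 h light and 12 h dark cycle after perfusion with cold saline, and the night retinas were dissected under dim red light. Each library was made from the total RNA of a retina after removal of ribosomal RNA. The mutation acts in pancreatic beta cells, where it misfolds insulin, so the retina is exposed to the outcome, chronic high glucose and low insulin, rather than to the mutant protein. At ZT21 the insulin gene itself, Ins2, had at most 4.82 normalized counts in the control libraries and at most 5.45 in the diabetic ones, so its level in retina cannot check the genotype labels.

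The retina burns most of its glucose in photoreceptors, which convert much of it to lactate by aerobic glycolysis and use the energy for the dark current and for renewing their outer segments. In darkness the cation channels of the outer segment stay open, and oxygen use by photoreceptors is at its highest, so the late night is a demanding time for this tissue. In diabetes, Müller glia, the radial support cells of the retina, can become reactive and make intermediate filaments such as Gfap, and the small vessels lose pericytes and leak. Txnip, an arrestin-like protein that limits glucose uptake, is a known glucose-responsive gene in many tissues.

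The question was which transcripts differ between diabetic and control retinas at this time of night. Counted reads ranged from 11492481 to 18575885 in the control and from 15346073 to 22147398 in the diabetic libraries. Values are given as normalized counts, the deposited read count divided by a size factor that evens out depth between libraries. The test was edgeR's quasi-likelihood test in 1 fit of all 58 libraries, and differences are log2 diabetic minus control with their standard error (SE). The study describes the libraries of a time point as biological replicates, but the labels do not tie them to single animals, so the p-values measure the spread between these samples. In whole retinas, fewer cells of a type and less RNA per cell cannot be told apart.

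Of 19120 genes tested, 0 (0%) passed an adjusted p of 0.05 in edgeR's test at ZT21. The smallest adjusted p was 0.112, shared by 6 genes. At an unadjusted p under 0.05 there were 892 genes (4.67%), of which 472 (2.47%) were higher and 420 (2.2%) lower in diabetic retinas. With upper-quartile scaling 577 of 898 such genes (64.3%) were higher, against 52.9% here. DESeq2's Wald test called 2 genes, Fstl3 and Slc5a8, and limma with library quality weights called 89. The groups of libraries did not overlap for 225 genes with higher values (1.18%) and for 202 with lower values (1.06%) in diabetic retinas. Differences were small, with a median absolute log2 difference of 0.09 over all genes tested and 93 genes beyond 1 in either direction.

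Diabetic replicates 2 and 4 carried myelin transcripts and control replicate 2 lens transcripts, and the results that rest on them are given with and without them. Mobp, a protein of the myelin sheath that oligodendrocytes make in the optic nerve, had 40.8 and 105 normalized counts in diabetic replicates 2 and 4 and 0 in the other 3 diabetic and in all 4 control libraries. In the 49 libraries of the other time points Mobp never exceeded 1.82 normalized counts. Mag, another myelin protein, followed with 10.2 and 22.3 in the same 2 libraries and between 1.26 and 4.07 in the others, while Mog stayed at or below 3.94. The summed level of the 12 muscle and oligodendrocyte markers was 1198 and 1722 in diabetic replicates 2 and 4, between 921.9 and 1053 in the other diabetic and between 890.0 and 946.9 in the control libraries. Lens transcripts were high in a control library: Cryaa, a lens crystallin, had 17898 normalized counts in control replicate 2, 47.4 in control replicate 3 and at most 4.28 in the others. Lens transcripts were also found at other times, with Cryaa above 10 normalized counts in 16 of the other 49 libraries and as high as 22769. The 19 lens markers summed to 37656 in control replicate 2, to 193 in control replicate 3 and to between 18.6 and 46.7 in the others, so control replicate 3 held some lens transcripts too and was left out only on its own, and 3 of them were at 0 throughout. Pigment epithelium markers summed to 3479 to 5523 normalized counts over the controls and to 3249.9 to 4854 over the diabetic libraries, so these ranges overlapped, with the highest sum in control replicate 1. Blood markers summed to 50.1 in control replicate 4 and to between 1.71 and 7.26 in the others, and none of them had enough reads to be tested. Leaving out diabetic replicates 2 and 4 gave 688 genes with an unadjusted p under 0.05, and leaving out control replicate 2 as well gave 586. These 2 fits were added after the data were seen.

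**Figure D1:**
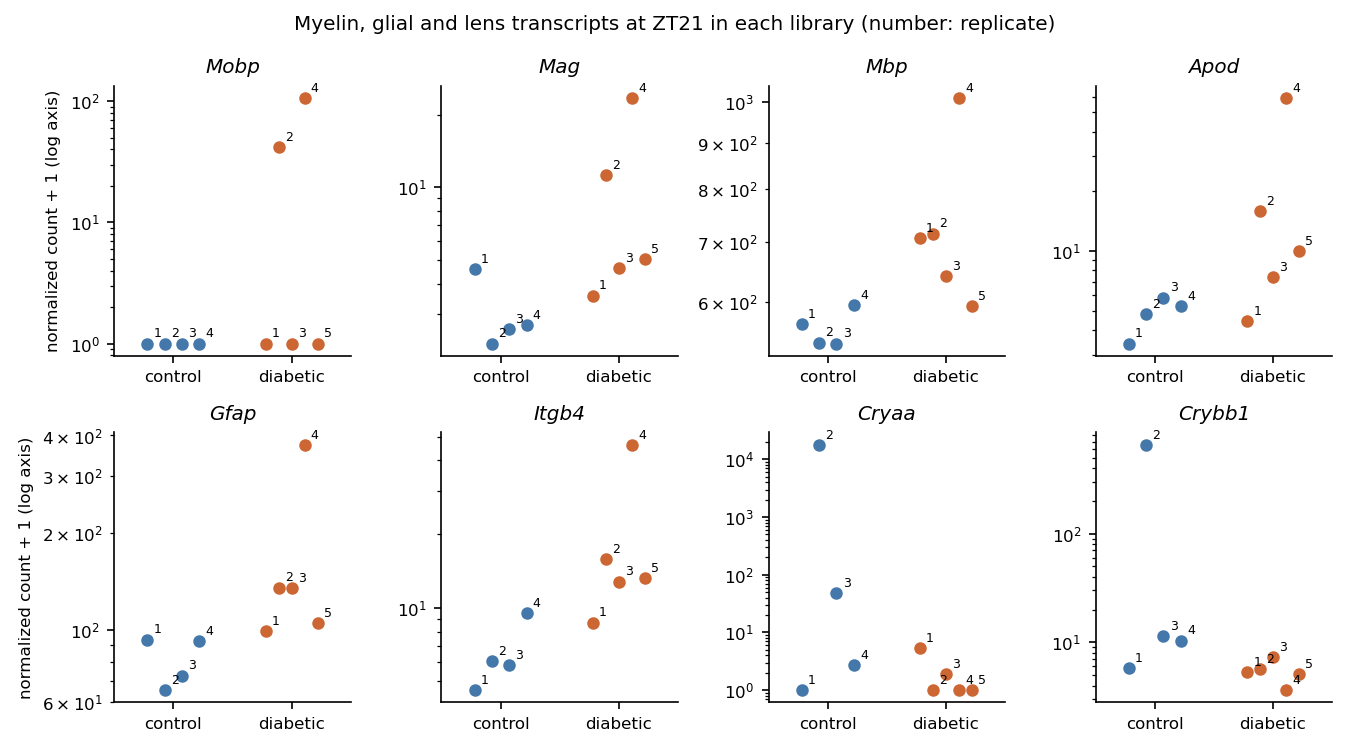
Normalized counts plus 1, on a log axis, of myelin, glial and lens transcripts in the 4 control and 5 diabetic libraries at ZT21, each point a library with its replicate number. Mobp is above 0 in diabetic replicates 2 and 4 alone, Apod, Gfap and Itgb4 are highest in diabetic replicate 4, and Cryaa and Crybb1 are highest in control replicate 2.

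Among the 10 genes of smallest p that were higher in diabetic retinas, 4 had their highest value in diabetic replicate 4 by a wide margin. Apod, a lipocalin of glia and of myelinated tissue, had 3.43, 14.8, 6.36, 57.8 and 8.95 normalized counts in diabetic replicates 1 to 5 against 2.41 to 4.82 in controls. The log2 difference of Apod was 2.25 ± 0.50 (adjusted p = 0.112), and 0.66 without the 2 libraries with Mobp. Itgb4, an integrin subunit, had between 3.61 and 8.5 normalized counts in controls and 7.71, 14.8, 11.8, 45.4 and 12.2 in diabetic libraries, a log2 difference of 1.73 ± 0.40 that was 0.89 without those 2 libraries. For Mbp, myelin basic protein, the values were 566, 540.1, 539 and 594 in control and 705, 714, 640.1, 1008 and 592 in diabetic libraries, so the groups overlapped. Its log2 difference was 0.38 ± 0.08 (adjusted p = 0.112), and 0.20 without the 2 libraries. In the lower direction, 2 of the 10 genes of smallest p were lens crystallins. Cryaa had a log2 difference of -11.98 ± 2.82 that was -4.06 without control replicate 2 but with control replicate 3, and Crybb1, at 656 normalized counts in control replicate 2 and 2.63 to 10.4 elsewhere, had -5.23 ± 1.34 and -0.97 without it.

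The other genes of smallest p had values spread more evenly over the libraries. Fstl3, a secreted protein that binds and blocks activins, lies on chromosome 10 from 79777272 to 79782630 (GRCm38). It had 66.2, 50.5, 61.8 and 90.1 normalized counts in control replicates 1 to 4 and 121, 98.4, 119, 119 and 173 in diabetic replicates 1 to 5. All diabetic libraries were above all control libraries, and the means were 67.1 ± 16.7 (SD, n = 4) and 126 ± 28.0 (SD, n = 5). The log2 difference was 0.89 ± 0.19 with an adjusted p of 0.112 in edgeR's test, between 0.75 and 1.07 over 22 alternative fits, and the adjusted p was under 0.05 in 3 of them.

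Txnip, on chromosome 3 from 96557957 to 96561883, had 80.6, 106, 55.4 and 74.8 normalized counts in control and 162, 80.7, 109.9, 166 and 111 in diabetic libraries. Diabetic replicate 2 lay within the control range and the other 4 diabetic libraries above it. The log2 difference was 0.69 ± 0.17 (adjusted p = 0.244), with 0.70 without the 2 libraries with Mobp and 0.57 without diabetic replicate 4. Gdf10, a ligand of the TGF beta family, had 9.62, 27.8, 16.1 and 17.0 normalized counts in control and 31.7, 42.7, 34.5, 46.0 and 25.2 in diabetic libraries. Its groups overlapped by control replicate 2 and diabetic replicate 5, and the log2 difference was 1.04 ± 0.26 (adjusted p = 0.244).

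Plat, tissue plasminogen activator, which starts the breakdown of fibrin clots, had 153, 103, 107 and 122 normalized counts in control and 178, 129, 179, 183 and 172 in diabetic libraries. The log2 difference of 0.47 ± 0.12 had an adjusted p of 0.244, and diabetic replicate 2 was the library inside the control range. Slc44a2, a choline transporter-like membrane protein, had 352, 358, 312 and 382 normalized counts in control against 399.9 to 471 in diabetic libraries, with no overlap and a log2 difference of 0.36 ± 0.08 (adjusted p = 0.206). Oit3 was at 3.79 to 7.22 normalized counts in control and at 8.55 to 17.6 in diabetic libraries, few reads in either, with a log2 difference of 1.25 ± 0.30 (adjusted p = 0.244).

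Slc5a8 had the largest difference outside the lens genes among the 10 lower genes of smallest p. It encodes a sodium-coupled transporter that carries lactate, pyruvate and ketone bodies into cells, and lies on chromosome 10 from 88885992 to 88929515. Normalized counts were 101, 106, 70.6 and 83.3 in control and 36.8, 69.6, 35.4, 38.1 and 46.4 in diabetic libraries. Every diabetic library was below every control library, although diabetic replicate 2 came within about 1 count of control replicate 3. The log2 difference was -0.99 ± 0.22 (adjusted p = 0.112), which is 0.502 of the control level. Over the 22 alternatives the difference of Slc5a8 lay between -1.19 and -0.91, and its adjusted p was under 0.05 in 5 of them.

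Rnf123, on chromosome 9 from 108051534 to 108083346, encodes the catalytic subunit of the ubiquitin ligase KPC, which marks the cell cycle inhibitor p27 for breakdown. Its normalized counts were 4235, 4228, 4290.4 and 4625 in control and 3671, 3256, 3691, 3292 and 3303 in diabetic libraries. The groups did not overlap and each was narrow, with means of 4345 ± 189 (SD, n = 4) and 3443 ± 218 (SD, n = 5). The log2 difference was -0.34 ± 0.08 (adjusted p = 0.112), and with a correction for GC content and length it was -0.36 with an adjusted p of 8.8e-05.

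Nxnl1 encodes the rod-derived cone viability factor, a thioredoxin-like protein that rods secrete and that helps cones take up glucose. It had 3537, 3623, 3972 and 4039 normalized counts in control and 3228, 2998, 3337, 2918 and 3099 in diabetic libraries. No diabetic library reached the control range, and the log2 difference was -0.29 ± 0.07 (adjusted p = 0.206). Fndc1, a fibronectin domain protein, had 511 to 628 normalized counts in control and 352 to 473 in diabetic libraries, also without overlap, with a log2 difference of -0.43 ± 0.10 (adjusted p = 0.206).

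Etohd2, an antisense transcript on chromosome 13 from 59769497 to 59775407, had 66.6 to 75.8 normalized counts in control and 31.8 to 51.3 in diabetic libraries. The groups did not overlap and the log2 difference was -0.69 ± 0.15 (adjusted p = 0.112). Etohd2 overlaps Isca1 on the other strand, whose mean of 798 normalized counts had a log2 difference of -0.03, and the strand setting of the counting is not given in the sources used here, so reads of the pair may not be separable. Fam159b, at 60.1 to 82.4 against 33.5 to 53.1 normalized counts, had a log2 difference of -0.61 ± 0.16 (adjusted p = 0.273). 2 predicted loci complete the 10 lower genes, Gm42697, which overlaps Egf on the other strand, with -0.52 ± 0.13, and AC123069.1 with -0.47 ± 0.12.

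**Figure D2:**
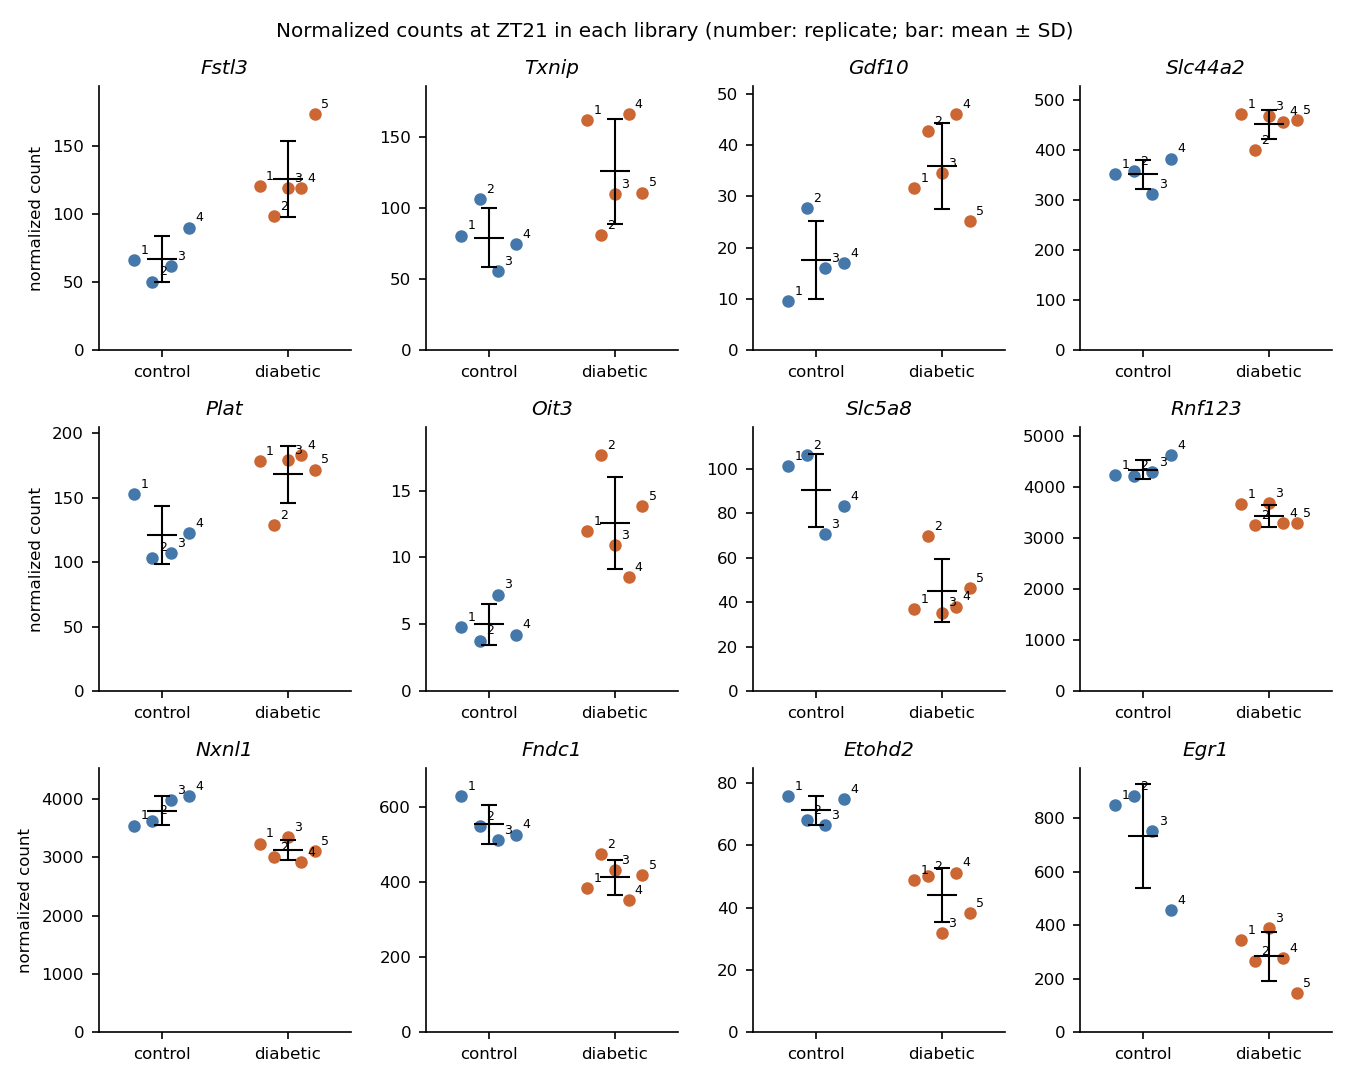
Normalized counts at ZT21 of 12 genes, each point a library with its replicate number, and bars the mean and SD of 4 control and 5 diabetic libraries. Fstl3, Slc44a2 and Oit3 lie above the control range and Slc5a8, Rnf123, Nxnl1, Fndc1, Etohd2 and Egr1 below it in every diabetic library, while Txnip, Gdf10 and Plat overlap.

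Pathway and cell type lists were then read beside these genes, each by how many members had an unadjusted p under 0.05, against 2.47% of all genes in the higher and 2.2% in the lower direction. The median log2 difference over all genes tested was -0.004. No member of any list passed the adjusted threshold in the edgeR fit described above. Of the myelin genes, Mbp passed it in edgeR with the correction for GC content and length (adjusted p = 0.0407) and without diabetic replicate 5 (0.0339). Mobp passed in edgeR with no filter on low counts (adjusted p = 0.0218). In limma with quality weights, which called 89 genes, members of other lists passed too. Among them were Txnip (adjusted p = 0.0039), Pdia6 (0.0128), P4ha1 (0.0318), Rgs9bp (0.0366) and Gfap (0.0383). Lists with 0 or 1 such member often gained or lost it when a single library was left out, so their members are given as values only, and members beyond the 2 of smallest p in a list were named after their values were seen.

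Energy use in photoreceptors starts with glycolysis, and most of its genes had lower means in diabetic retinas at ZT21. Of 24 glycolysis genes tested, 20 had lower and 4 higher values, 6 had an unadjusted p under 0.05 in the lower and 0 in the higher direction, and the median log2 difference was -0.12. Pfkfb3 makes fructose 2,6-bisphosphate, the strongest activator of the phosphofructokinase step, and had 849, 719, 809 and 897 normalized counts in control against 657, 657, 606, 674 and 741 in diabetic libraries. Only diabetic replicate 5 was inside the control range, and the log2 difference was -0.30 ± 0.09 (unadjusted p = 0.00194, adjusted p = 0.552).

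Slc16a3 encodes MCT4, which exports lactate, and had 1037, 834, 1182 and 1285 normalized counts in control and 909, 777, 765, 802 and 838 in diabetic libraries. Control replicate 2 lay among the diabetic values, and the log2 difference was -0.41 ± 0.14 (unadjusted p = 0.00447). The other 4 members were named after their values were seen: Pfkl, the liver type phosphofructokinase, with -0.25 ± 0.09, Ldha, which turns pyruvate into lactate, with -0.22 ± 0.08, Eno1, enolase, with -0.23 ± 0.10, and Tpi1, triose phosphate isomerase, with -0.20 ± 0.10. Hk2, the photoreceptor hexokinase, had a log2 difference of -0.12 ± 0.10 with overlapping groups. The count of 6 was between 4 and 9 with each library left out, 2 without the 2 libraries with Mobp and 4 without these and control replicate 2, where the median was -0.16.

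Several of these genes are targets of hypoxia-inducible factor, a transcription factor that low oxygen stabilizes. Of 21 genes of that pathway tested, 16 had lower and 5 higher values, 3 had an unadjusted p under 0.05 in the lower and 0 in the higher direction, and the median was -0.08. Both the median, at -0.05, and the count, at 2, were nearer 0 without diabetic replicate 2 and without both libraries with Mobp, and they were -0.09 and 2 when control replicate 2 was left out as well. P4ha1, a prolyl hydroxylase that matures collagen, had 1442, 1432, 1649 and 1528 normalized counts in control and 1188, 1271, 1149.5, 1196 and 1319 in diabetic libraries. The groups did not overlap, and the log2 difference was -0.31 ± 0.09 (unadjusted p = 0.00124, adjusted p = 0.480). Egln1, the oxygen sensor that marks the factor for breakdown, had 1694 to 2447 normalized counts in control and 1540.2 to 1964 in diabetic libraries, with a log2 difference of -0.30 ± 0.10. Pdk1, the kinase that shuts off pyruvate dehydrogenase, had -0.20 ± 0.09. Vegfa, the vascular growth factor, had 1734 to 2313 in control and 1906 to 2118 in diabetic libraries, a log2 difference of -0.05 ± 0.09.

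The factor binds sites with letters such as ACGTG, and ACGTG alone was searched here. The search covered both strands of the 120 bases before each RefSeq transcription start (GRCm38.p6). It took the 9 glycolysis and hypoxia pathway genes with an unadjusted p under 0.05. Another form of the site, GCGTG, was not searched, so a window without ACGTG may still hold a site. ACGTG was in at least 1 window of 5 genes, Pfkfb3, Ldha, Slc16a3, Egln1 and P4ha1, and in no window of Pfkl, Tpi1, Eno1 and Pdk1. It is common, being in 3091 of 32851 such windows (9.41%), and a gene with several starts has several windows. For each of the 5 genes, 1 window that holds ACGTG is shown 5′ to 3′ to let its place be seen. Capitals mark ACGTG or its complement CACGT, which overlap where they read CACGTG. The first start listed is used for Pfkfb3, whose other window also holds ACGTG and is not shown, and the start with a match for Ldha.
Pfkfb3, chr2:11553930-11554049, minus strand: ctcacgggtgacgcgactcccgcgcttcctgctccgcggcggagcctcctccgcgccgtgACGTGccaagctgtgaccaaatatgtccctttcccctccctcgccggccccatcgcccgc
Ldha, chr7:46845684-46845803, plus strand: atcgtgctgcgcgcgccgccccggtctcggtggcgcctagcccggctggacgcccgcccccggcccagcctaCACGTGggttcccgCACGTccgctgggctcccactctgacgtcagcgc
Slc16a3, chr11:120948947-120949066, plus strand: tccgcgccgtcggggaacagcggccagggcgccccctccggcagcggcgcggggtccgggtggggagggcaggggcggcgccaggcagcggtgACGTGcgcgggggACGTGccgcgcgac
Egln1, chr8:124949255-124949374, minus strand: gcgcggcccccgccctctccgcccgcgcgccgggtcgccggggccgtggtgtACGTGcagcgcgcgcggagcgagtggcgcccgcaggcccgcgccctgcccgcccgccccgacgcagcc
P4ha1, chr10:59323176-59323295, plus strand: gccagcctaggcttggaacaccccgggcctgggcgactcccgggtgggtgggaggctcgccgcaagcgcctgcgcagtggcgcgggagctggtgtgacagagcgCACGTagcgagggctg
A match of these letters is a description of the sequence and no evidence of binding in these retinas.

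Of 20 genes for glucose sensing and for the polyol, hexosamine and glycation pathways, 11 had higher and 9 lower values, and Txnip was the single member with an unadjusted p under 0.05. The second by p was Glo1, which clears methylglyoxal, with 0.13 ± 0.07. Arrdc4, a paralog of Txnip that answers to the same glucose-sensing factor, had 89.0, 97.2, 90.7 and 95.2 normalized counts in control and 73.5 to 94.6 in diabetic libraries, a log2 difference of -0.14 ± 0.12, and was named after its values were seen. That factor, ChREBP, binds a paired element, searched here as CACGNG, any 5 bases and CACGNG again on both strands, which 9 of 32851 windows hold (0.0274%). The Txnip window holds it once, shown in capitals, and the Arrdc4 window does not hold these letters.
Txnip, chr3:96557837-96557956, plus strand: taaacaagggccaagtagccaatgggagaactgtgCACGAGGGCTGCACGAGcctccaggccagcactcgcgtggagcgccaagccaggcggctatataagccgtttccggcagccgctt

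Fuel use besides glucose showed little. For fatty acid oxidation, ketone and PPAR genes 1 of 22 tested genes, Acot1, an acyl-CoA thioesterase, had an unadjusted p under 0.05, with a log2 difference of 0.53 ± 0.24. Acadm, a dehydrogenase of beta oxidation, had 0.11 ± 0.08, and Pdk4, a fasting-induced kinase, had 1.63 to 11.8 normalized counts in diabetic libraries, wider than the 5.05 to 9.35 of the controls. Among 23 insulin, IGF and FOXO genes 0 had an unadjusted p under 0.05, with -0.11 ± 0.06 for Pik3r1 and 0.09 ± 0.06 for Foxo1. Neither did any of 24 cholesterol synthesis genes (Dhcr7 0.16 ± 0.09, Lss 0.10 ± 0.06) or of 18 fatty acid synthesis genes (Elovl1 -0.24 ± 0.12, Elovl2 0.14 ± 0.08). Of 20 NRF2 antioxidant and metallothionein genes 1 did, Gclc, the rate-limiting enzyme of glutathione synthesis, with -0.13 ± 0.06, and Srxn1 had 0.19 ± 0.10.

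Photoreceptor genes had slightly lower means as a group. Of 21 rod phototransduction genes, 19 had lower and 2 higher values, 6 had an unadjusted p under 0.05 in the lower direction and 0 in the higher, and the median log2 difference was -0.11. Rgs9bp, which anchors the GTPase complex that ends the rod response, had 15500 to 17254 normalized counts in control and 13624 to 15078 in diabetic libraries. These ranges did not overlap, and the log2 difference was -0.19 ± 0.06 (unadjusted p = 0.00269, adjusted p = 0.553). Sag, rod arrestin, had 35468 to 39493 against 30454 to 35083 normalized counts, likewise without overlap, with -0.20 ± 0.08. The other 4 were Pde6g, the inhibitory subunit of the rod phosphodiesterase, with -0.27 ± 0.11, Gngt1 and Gnb1, subunits of rod transducin, with -0.19 ± 0.09 and -0.18 ± 0.07, and Grk1, a kinase that helps end the light response, with -0.14 ± 0.06. The count of 6 was between 3 and 9 with each library left out and 3 without diabetic replicate 2. It was 2 without both libraries with Mobp, 1 when control replicate 2 was left out as well, and 12 with the correction for GC content and length.

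Cone genes gave like values, with 12 of 14 lower, 4 at an unadjusted p under 0.05 in the lower and 0 in the higher direction, and a median of -0.11. Kcnv2, a potassium channel subunit of rod and cone inner segments, had 8885 to 9765 normalized counts in control and 7523 to 9099 in diabetic libraries, a log2 difference of -0.23 ± 0.08. Opn1mw, the M cone opsin, had -0.28 ± 0.12, Pde6c, the cone phosphodiesterase, -0.16 ± 0.07 and Gnb3, a cone transducin subunit, -0.18 ± 0.08. Without control replicate 2 the count was 2, and without the libraries with Mobp it was 1. With control replicate 2 left out as well the count was 1 and the median -0.06. Of 15 photoreceptor transcription factors 13 were lower, and Samd7, a repressor that keeps rods from expressing other genes, had 1941 to 2151 against 1457 to 1915 normalized counts and -0.28 ± 0.09 (unadjusted p = 0.00258), while Mef2c had -0.13 ± 0.08.

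Outer segment and visual cycle genes had 1 higher and 1 lower member at an unadjusted p under 0.05, and a median of -0.10. Fscn2, an actin bundling protein of photoreceptors, had a higher mean, with a log2 difference of 0.29 ± 0.10, and Rdh8, a retinol dehydrogenase of outer segments, a lower one, with -0.17 ± 0.08, among 19 genes of which 15 were lower. The lower count depended on the fit, with 8 under the correction for GC content and length, 6 in limma, 5 in the ZT21 libraries alone, 4 without diabetic replicate 1 or 3 and 0 without control replicate 1 or diabetic replicate 5. Ribbon synapse genes had 0 of 17 at an unadjusted p under 0.05, with Lrit1 at -0.16 ± 0.08 and Egflam at -0.09 ± 0.05.

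**Figure D3:**
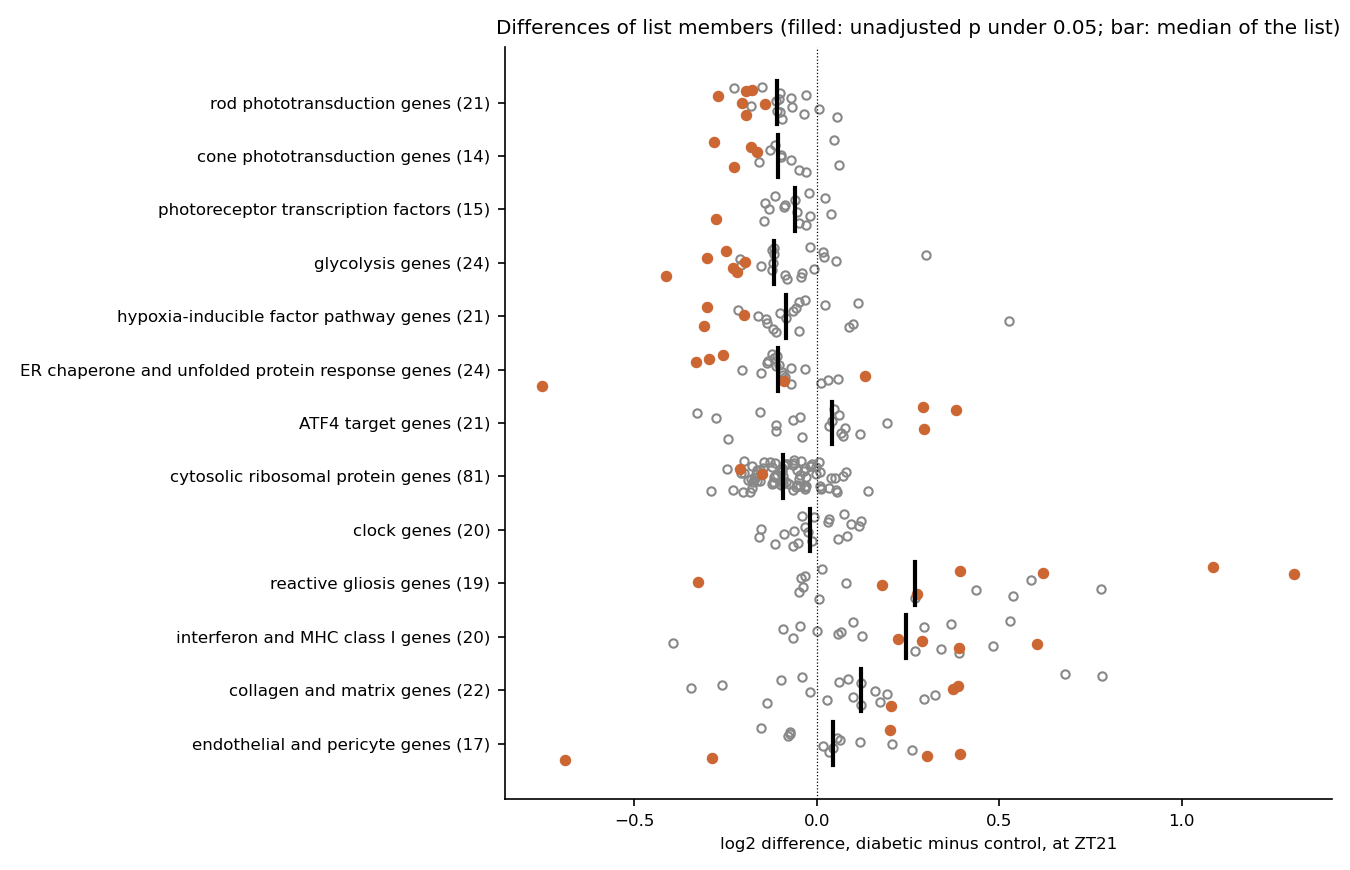
Log2 difference, diabetic minus control, of each tested member of 13 gene lists at ZT21, filled where the unadjusted p was under 0.05, with a bar at the list's median and the number of genes tested in brackets. Rod, cone, glycolysis, chaperone and ribosomal protein genes lie mostly left of 0, reactive gliosis and interferon genes mostly right of it, and clock genes on both sides.

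Endoplasmic reticulum chaperones, which fold secreted and membrane proteins, had lower means as well. Of 24 chaperone and unfolded protein response genes 20 were lower, 5 had an unadjusted p under 0.05 in the lower and 1 in the higher direction, and the median was -0.11. Pdia6, a disulfide isomerase, had 977, 876, 958 and 972 normalized counts in control and 801, 765, 844, 729 and 732 in diabetic libraries. All diabetic values were below all control values, and the log2 difference was -0.29 ± 0.08 (unadjusted p = 0.000457, adjusted p = 0.282). Calr, calreticulin, had -0.33 ± 0.12, Hsp90b1, the chaperone GRP94, -0.26 ± 0.12, Derl3 -0.75 ± 0.37 at 2.78 to 16.9 normalized counts, and Sel1l -0.09 ± 0.04, the last 2 being parts of the pathway that removes misfolded proteins. Hspa5, the chaperone BiP, had 2733 to 3449 in control and 2410.2 to 2950 in diabetic libraries, and -0.12 ± 0.12. The higher member was the stress sensor Ern1, with 0.13 ± 0.06, and the higher count was 0 without diabetic replicate 1 or 2 or control replicate 2 or 3, with the replicate block and with the correction for GC content and length. With single libraries left out, the count of 5 was between 1 and 6. It was 1 without control replicate 4, 2 without control replicate 3 and 3 without control replicate 1 or diabetic replicate 4.

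Targets of ATF4, the transcription factor of the integrated stress response, had 3 of 21 tested genes higher and 0 lower at an unadjusted p under 0.05, with a median of 0.04 that was between 0.004 and 0.06 with each library left out, lowest without diabetic replicate 3 and 0.008 without diabetic replicate 4. Trib3, a pseudokinase that restrains ATF4, had 78.2 to 104 normalized counts in control and 104 to 142 in diabetic libraries, with no overlap and a log2 difference of 0.38 ± 0.14 (unadjusted p = 0.0103). Slc38a2, an amino acid transporter, had 0.29 ± 0.12, and Atf4 itself 0.29 ± 0.13. Left-out libraries took the count to 1 without control replicate 1, diabetic replicate 4 or diabetic replicate 5.

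Ribosomal protein genes of the cytosol were lower in 68 of 81, with a median of -0.09, but only Rpl19 (-0.21 ± 0.09) and Rpl30 (-0.15 ± 0.07) had an unadjusted p under 0.05. The count of 2 became 5 without diabetic replicate 3, 1 without diabetic replicate 2 or control replicate 3 or 4, and 0 without both libraries with Mobp, and the median was -0.03 without diabetic replicate 2. Of 37 nuclear complex I genes 30 were lower and 1, Ndufa1, had an unadjusted p under 0.05, with -0.29 ± 0.14, while Ndufb3 had -0.15 ± 0.08. Genes of the mitochondrial genome had a median of -0.19 over 9 tested, with 0 at an unadjusted p under 0.05, and with -0.12 without diabetic replicate 3 and -0.05 without control replicate 4, where mt-Nd1 was at 46413 normalized counts against 31074 to 32348 in the other controls. The log2 differences of mt-Nd4 and mt-Nd1 were -0.19 ± 0.18 and -0.23 ± 0.23. Ribosomal RNA-like loci and long nuclear RNAs, which bear on RNA composition, had 0 members with an unadjusted p under 0.05. The log2 differences were 0.13 ± 0.18 for Gm26917, 0.35 ± 0.46 for Rn7s1, 0.22 ± 0.11 for Miat and 0.07 ± 0.11 for Snhg11. Small structural and ribosomal RNA-like loci summed to 994310 normalized counts in diabetic replicate 3 and 894450 in control replicate 4, against 600850 to 781520 in the others. Whether this moved the list values was not tested.

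Reactive gliosis genes had a median of 0.27 over 19 genes tested, of which 14 were higher. The median was 0.14 without diabetic replicate 4 and 0.11 without both libraries with Mobp. At an unadjusted p under 0.05 there were 6 higher and 1 lower. Gfap, on chromosome 11 from 102887336 to 102900912, had 92.6, 64.4, 71.4 and 91.8 normalized counts in control and 98.5, 135, 134, 373 and 104 in diabetic libraries. All diabetic libraries were above all controls, and diabetic replicate 4 stood far above the other 4, which lay between 98.5 and 135. The log2 difference was 1.09 ± 0.27 (adjusted p = 0.244), 0.55 without diabetic replicate 4 and 0.48 without both libraries with Mobp. Astrocytes of the optic nerve make Gfap too, and the part of nerve tissue in this difference was not tested.

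Fgf2, a growth factor that stressed photoreceptors and glia make, was the member in the lower direction, with 350.2 to 453 normalized counts in control against 289 to 325 in diabetic libraries and a log2 difference of -0.33 ± 0.11 (unadjusted p = 0.00333). Fgf2 overlaps Nudt6 on the other strand, which had a mean of 41.5 normalized counts and a log2 difference of 0.39, so reads of this pair may not be separable either. The other higher members, named after their values were seen, were Serpina3n, an acute phase protease inhibitor, at 1.31 ± 0.59, Lcn2, an iron-binding acute phase protein, at 0.62 ± 0.29, Nes, nestin, at 0.39 ± 0.15, Osmr, a cytokine receptor, at 0.27 ± 0.13 and Stat3, its transcription factor, at 0.18 ± 0.06. Serpina3n was at 177 and 84.4 normalized counts in diabetic replicates 4 and 3 and at 20.2 to 44.8 elsewhere. The 6 higher members became 2 without diabetic replicate 4, 3 without control replicate 3 and 1 without the libraries with Mobp. Müller glia homeostasis genes had 0 of 19 at an unadjusted p under 0.05 and a median of 0.01, with Id1 at -0.31 ± 0.18 and Cyr61 at 0.35 ± 0.22.

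The next list joins interferon genes with MHC class I genes, whose products display peptides to T cells. In it 15 of 20 were higher, with a median of 0.24 and 4 at an unadjusted p under 0.05. Psmb8, a subunit of the immunoproteasome, had 11.4 to 24.1 normalized counts in control and 25.4 to 40.1 in diabetic libraries, a log2 difference of 0.60 ± 0.24. H2-K1, a class I heavy chain, had 226 to 247 against 249.8 to 362, also without overlap, and 0.29 ± 0.13. Tap1, the peptide transporter, had 0.39 ± 0.18 and H2-D1 0.22 ± 0.11. Reads of H2-K1 and H2-D1 may be shared between these near-identical genes. The median was 0.15 without diabetic replicate 4. The count was 0 without diabetic replicate 4 or control replicate 2, 1 without diabetic replicate 1 and 2 without control replicate 3. Without both libraries with Mobp the count was 2 and the median 0.18. It was 0 when control replicate 2 was left out as well. Microglia and complement genes had 0 of 17 at an unadjusted p under 0.05, with 0.78 ± 0.42 for Lyz2 and 0.47 ± 0.28 for Cd68.

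Of 17 endothelial and pericyte genes tested, 3 were higher and 2 lower at an unadjusted p under 0.05. Vtn, vitronectin, had 7572 to 9163 normalized counts in control and 6041 to 7464 in diabetic libraries. These ranges did not overlap, and the log2 difference was -0.29 ± 0.09 (unadjusted p = 0.00226). Its control mean of 8122 was far above those of the pericyte genes Cspg4 (65.0) and Notch3 (120). Which cells make Vtn here was not tested, so it is not read as a pericyte value. Acta2, smooth muscle actin, had -0.69 ± 0.27, whereas the pericyte genes Cspg4 and Notch3 had 0.39 ± 0.17 and 0.30 ± 0.13 and the endothelial Pecam1 0.20 ± 0.10. The 3 higher members became 0 without diabetic replicate 4 or control replicate 3 and 1 without control replicate 2 or diabetic replicate 3, and the 2 lower became 1 without control replicate 2. In the collagen and matrix list 16 of 22 were higher, with 3 at an unadjusted p under 0.05, Col6a1 (0.37 ± 0.15), Col5a1 (0.39 ± 0.17) and Sparc (0.20 ± 0.10), with a count between 0 and 5 as single libraries were left out and 0 without control replicate 2.

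Angiogenic ligands and receptors had 4 of 24 higher and 1 lower at an unadjusted p under 0.05. Myof, which stabilizes VEGF receptors at the membrane, had 177 to 219 normalized counts in control and 224 to 269 in diabetic libraries, with no overlap and a log2 difference of 0.27 ± 0.09. Pgf, placental growth factor, had 1.17 ± 0.47 at 2.52 to 15.4 normalized counts, Hgf 0.36 ± 0.18, Kdr, the main VEGF receptor, 0.14 ± 0.07 and Angptl6 -0.38 ± 0.14. The 4 higher members became 2 when control replicate 1 or 3 or diabetic replicate 1, 2 or 3 was left out.

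Clock genes showed no difference that stood out at this time. Of 20 tested, 0 had an unadjusted p under 0.05, with 8 higher, 12 lower and a median of -0.02. Arntl, the activator BMAL1, had 1716, 1782, 1864 and 1837 normalized counts in control and 1777, 1987, 1903, 1928 and 1918 in diabetic libraries, a log2 difference of 0.07 ± 0.07. Per2, a repressor of the loop, had 482 to 699 against 436 to 743 normalized counts and 0.12 ± 0.14, Cry2 0.12 ± 0.07 and the output factor Dbp -0.16 ± 0.12, with overlapping groups in each. Dbp overlaps Sphk2 on the other strand. The dopamine D4 receptor Drd4, a night gene of photoreceptors, had 3836 to 5828 normalized counts in control and 3420 to 4484 in diabetic libraries, -0.22 ± 0.14. In its list of 17 tested genes, Adcy1, the adenylyl cyclase that makes the night cyclic AMP of photoreceptors, was the member with an unadjusted p under 0.05, with 8194 to 8689.7 against 7521 to 8144 normalized counts and -0.13 ± 0.07, and Drd2 had -0.18 ± 0.11.

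Immediate early genes, which record recent activity of neurons, had 15 of 21 lower and 1 at an unadjusted p under 0.05. Egr1 had 850.3, 882, 753 and 456 normalized counts in control and 344, 265, 389.5, 277 and 148 in diabetic libraries. Each diabetic value was below each control value, and the log2 difference was -1.37 ± 0.64 (unadjusted p = 0.0368, adjusted p = 1.00), in a fit that shares 1 estimate of the spread over 6 time points. In a fit of the ZT21 libraries alone with a block for replicate number it was -1.17 with an adjusted p of 5.65e-05, whereas the adjusted p of Egr1 was between 0.230 and 1.00 in the other alternatives in edgeR, DESeq2 or limma. Fosb had 0.36 ± 0.21.

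Glucocorticoid receptor targets had 2 of 21 higher at an unadjusted p under 0.05 and 0 without diabetic replicate 4, Cdkn1a, the cell cycle inhibitor p21, with 25.7 to 30.1 normalized counts in control against 30.6 to 73.6 in diabetic libraries and 0.76 ± 0.29, and Lcn2 given above. The heat shock list of 25 held 1, Cryab, which the lens also makes, with -2.24 ± 0.69 that was -0.19 without control replicate 2, and the cold-inducible Cirbp had 0.18 ± 0.09.

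Of 13 bipolar cell genes 11 had lower values, with a median of -0.06. Bipolar, amacrine, ganglion and horizontal cell genes had 0 members at an unadjusted p under 0.05 among 13, 13, 15 and 6 tested. Among their members of smallest p were Nyx (-0.14 ± 0.08) and Grm6 (-0.15 ± 0.09) for bipolar, Chat (0.09 ± 0.13) for amacrine, Isl2 (-0.32 ± 0.21) and Ebf1 (0.08 ± 0.09) for ganglion and Gja10 (-0.17 ± 0.16) and Tpm3 (0.08 ± 0.07) for horizontal cells. Of 15 neuropeptide genes, Vip had -0.39 ± 0.17 (unadjusted p = 0.0298) and Adcyap1 0.26 ± 0.21. In the pigment epithelium list Lrat, the retinol esterifying enzyme, had 124 to 295 normalized counts in control and 96.0 to 145 in diabetic libraries, -0.70 ± 0.30 and -0.41 without control replicate 1, where no member of the list had an unadjusted p under 0.05, and Slc26a7 had -0.31 ± 0.28. Only 2 of 12 cornea and ciliary body markers in the table had enough reads to be tested, Dcn with 0.32 ± 0.69 and Optc with 0.11 ± 0.74, and of 9 blood markers 0 had.

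Whether the ZT21 difference departed from that at the other 5 time points was tested in the same fit, as the log2 difference at ZT21 minus the mean of the log2 differences at ZT1, ZT5, ZT9, ZT13 and ZT17. Of 19120 genes 0 (0%) passed an adjusted p of 0.05 in edgeR's test, where the smallest was 1.00, and 376 (1.97%) had an unadjusted p under 0.05. DESeq2 called 0 as well. For Fstl3 the difference at the other time points averaged 0.75 and was 0.15 ± 0.21 higher at ZT21. Rnf123 had -0.32 on average, with -0.02 ± 0.08 for the departure at ZT21, and Fndc1 -0.45 with 0.02 ± 0.11. The departure of Fstl3 was 0.33 ± 0.23 without control replicate 4, 0.28 ± 0.23 without both libraries with Mobp and 0.003 ± 0.209 without diabetic replicate 5. Counts of genes past the adjusted threshold were 2, 4, 1, 0 and 32 at ZT1, ZT5, ZT9, ZT13 and ZT17.

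In 6 genes picked for their values at ZT21 or for their role, the difference at ZT21 was the farthest from 0 of the 6 time points. Because of that choice their departures are given as a description, without a test. Slc5a8 had -0.10 ± 0.20 at ZT1, -0.54 ± 0.22 at ZT13 and -0.99 ± 0.22 at ZT21, a departure of -0.71 ± 0.24 from the mean of the other time points. Pfkfb3 lay between -0.17 and 0.08 at the other hours, a departure of -0.27 ± 0.10, P4ha1 between -0.18 and 0.03, with -0.25 ± 0.10, and Egln1 between -0.20 and 0.11, with -0.27 ± 0.10. Txnip was between -0.06 and 0.57 at the other hours, with a departure of 0.43 ± 0.19, and Gfap between -0.04 and 0.26, with 0.95 ± 0.29. The departure of Gfap was 0.41 ± 0.25 without diabetic replicate 4 and 0.34 ± 0.26 without both libraries with Mobp, that of Egln1 was -0.18 ± 0.11 without control replicate 4, and that of Txnip was 0.28 ± 0.20 without control replicate 3. The median of the hypoxia pathway list was -0.08 at ZT21, or -0.05 without diabetic replicate 2, and between -0.02 and 0.08 at the other time points. That of glycolysis was -0.12 at ZT21, -0.15 at ZT1 and -0.13 at ZT17, and between -0.01 and 0.01 at the other 3. Over all genes tested, the ZT21 difference and the mean of the other time points had Pearson's r = 0.345, across genes that share libraries and are not independent.

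**Figure D4:**
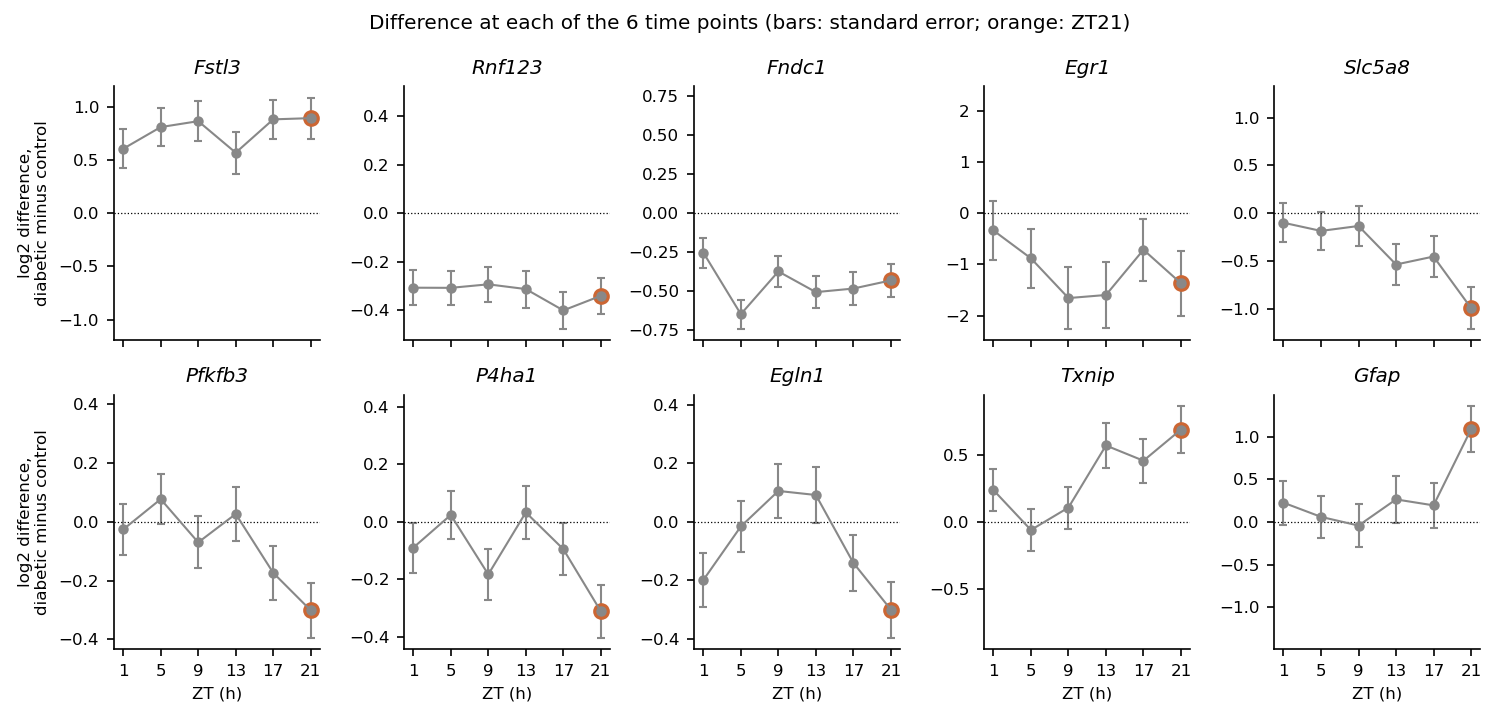
Log2 difference, diabetic minus control, at each of 6 time points (ZT in h) for 10 genes, with bars for the standard error and ZT21 in orange. Fstl3 stays above 0 and Rnf123, Fndc1 and Egr1 below 0 at every time point, while Slc5a8, Pfkfb3, P4ha1, Egln1, Txnip and Gfap lie farthest from 0 at ZT21.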

How the data were processed

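The authors deposited raw read counts per gene for each of 58 mouse retina libraries. The submitters' processing notes name STAR 2.7.4a, HTSeq 0.11.1, DESeq2 1.26.0 and the build GRCm38.p5. The strand setting is not given in the sources used here, which bears on overlapping genes.

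Genes with a median above 4 normalized counts (DESeq2 size factors) over all libraries were kept, 19120 of 52459. edgeR 4.0.16 in R 4.3.3 fitted 12 groups of genotype and time with TMM factors and its quasi-likelihood test, and p-values were adjusted by Benjamini-Hochberg over all genes tested. The SE is the log2 difference divided by the square root of F. DESeq2 1.42.0, limma 3.58.1, other scalings, filters, blocks and left-out libraries were alternatives. Summaries used Python 3.11.15 and pandas 2.3.3. The fit was also run on simulated counts with known fold changes, whose outcome is not given here. Promoter sequences and gene positions come from RefSeq and GRCm38 annotation.

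The comparison, its members and gene lists were chosen with earlier results of these data known. Named genes were the 10 of smallest p in each direction, since 0 passed the threshold, up to 2 of smallest p in each list, and Ins2, Txnip, Pdk4, Hk2, Vegfa, Gfap, Per2, Arntl, Dbp and Drd4. Some genes that this rule names are not reported here. Any other gene was named after its values were seen. Every deposited count column was matched to a sample.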

Additional observations from a re-analysis of the deposited data

Results flagged for a closer look

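In 24 of 226 groups of libraries of the named genes (10.6%), 1 library lay far from the others by Dixon's criterion, where chance gives about 1 in 20 (5%). In diabetic retinas the single high values were 57.8 normalized counts of Apod, 45.4 of Itgb4, 373 of Gfap, 4.28 of Cryaa, 8144 of Adcy1, 41.4 of Lyz2, 269 of Myof, 30.9 of Dcn, 3.94 of Mog and 958 of Pdk1. The single low values there were 399.9 of Slc44a2, 129 of Plat, 33.5 of Fam159b, 14.8 of Cd68 and 546 of Rpl30. In control retinas the high values were 4625 of Rnf123, 17898 of Cryaa, 656 of Crybb1, 392 of AC123069.1, 4944 of Cryab, 382 of Ndufa1, 46413 of mt-Nd1 and 1.26 of Mog, and the low value was 8885 of Kcnv2.

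Mobp was not tested because of its low counts, and it reached 105 normalized counts in a diabetic library against 0 in all 4 controls at ZT21.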

How the results depend on the processing

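Genes past an adjusted p of 0.05 at ZT21 numbered 6 with the GC and length correction, 6 in a fit of the ZT21 libraries alone with a replicate block, 89 in limma with quality weights, 2 in DESeq2 and 1, Mobp, with no filter on low counts. With each library left out in turn they numbered 0 to 1: Apod without diabetic replicate 1, Slc5a8 without diabetic replicate 2 and Mbp without diabetic replicate 5. Unadjusted counts were 1350 with no filter, 1448 in the ZT21 libraries alone with a block, 2077 in limma and 586 without the 2 libraries with Mobp and the library with lens transcripts, and 666 to 1011 with each library left out. For the departure from the other time points the unadjusted count was 765 with no filter. The cause of these shifts was not tested.

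The labels do not say whether replicate numbers pair the samples. Same-numbered libraries had correlations of their deviations from the group means between 0.00996 and 0.223, with 2 of 4 over 0.1. Those with unlike numbers had correlations between -0.351 and 0.273, and 2 of 4 controls correlated best with their own number. So few pairs cannot settle whether the numbers mark a shared batch. With the replicate block the fit of all libraries called 0 genes and gave 1012 at an unadjusted p under 0.05.

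Over 22 alternatives, 109 named genes gave 2390 values, of which 2378 had the direction reported and 12 the other with an unadjusted p of 0.05 or more. The 2 fits without the libraries with Mobp were chosen after seeing the data. Depth limits genes of few reads, such as Oit3, Apod and Pgf.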
